A study of Mus musculus with 20 samples.

Results

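Sertoli cells and Leydig cells are the somatic cells that surround and support the germ line in the testis. Sertoli cells line the seminiferous tubule, seal it with tight junctions and answer to follicle-stimulating hormone through the receptor encoded by Fshr. Leydig cells lie between the tubules and make testosterone under luteinizing hormone, which they sense through the receptor encoded by Lhcgr. Both programmes are known from these somatic cells, and here their genes were read in a germ cell culture. The set held 10 genes chosen by name: the Sertoli cell genes Sox9, Wt1, Amh, Inha, Cldn11, Clu and Fshr, and the Leydig cell genes Lhcgr, Star and Cyp17a1. All 10 were found by symbol in both deposited tables, among 25965 gene windows measured for chromatin and 25067 genes measured for RNA.

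The cells were germline stem cells (GSCs) of the mouse, a culture of cells akin to spermatogonial stem cells, kept on a layer of fibroblast feeder cells. Control cells were Kmt2bF/F; Rosa26-CreERT2 and received ethanol only. Knockout cells were Kmt2bFC/FC after 4-hydroxytamoxifen (4-OHT) at 1 µM had switched on the Cre recombinase from the Rosa26 locus. Cells of these groups were harvested 6 days after 4-OHT. Kmt2b encodes a methyltransferase that places H3K4me3, the histone mark of gene starts. Each group had 2 libraries, from duplicate cell lines according to the series design, for H3K4me3, H3K27me3 (the Polycomb repressive mark), input chromatin and RNA. H3K9me3, the mark of constitutive heterochromatin, was read in 2 Kmt2bF/F libraries beside inputs 3 and 4, made with another library kit; their day and treatment are not given in the sources used here. Because only knockout cells received 4-OHT, loss of Kmt2b and exposure to the drug cannot be told apart. Feeder cells and any other somatic cells share the culture, and in such bulk libraries fewer cells of a type and less RNA per cell cannot be told apart.

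Values are given as RPM (mapped reads scaled to a common library total) in 1 window per gene for chromatin and over the gene for RNA, so RNA levels are compared between libraries of 1 gene and not between genes, and chromatin levels are set against the input of the same window. Where windows are sorted by their level, this is a description. The H3K4me3 library of knockout replicate 1 was the shallowest with 3830045 mapped reads, against 10360151 to 18035120 for the other H3K4me3 libraries, and 20.7% of its reads lay in gene windows against 25.6% to 29.0%. H3K27me3 libraries and inputs 1 and 2 of each genotype held 10538531 to 14810131 reads, H3K9me3 libraries and their inputs 41099192 to 63537167, and RNA libraries 38458004 to 45771856. All 17 germ cell marker genes had reads in every RNA library, with a summed level of 3470 to 3657 RPM, and so had all 22 feeder fibroblast markers, at 534 to 755 RPM. Kmt2b, listed under its older symbol Wbp7, had 142.1 and 150.0 RPM of RNA in control and 131.5 and 184.6 RPM in knockout; a total over the whole gene does not show which exons were removed, so it checks no label. Replicates were compared with limma, which fits all windows or genes together; a gene is called where the Benjamini-Hochberg adjusted p over the whole table is under 0.05. With 2 libraries against 2 the smallest p an exact permutation test allows is 0.333, so no such test could reach 0.05 for a single gene.

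The promoters of Cldn11, Lhcgr and Fshr are shown because Cldn11 gave the only member call between genotypes, Lhcgr had 3 marks above input, and Fshr lies next to Lhcgr with a different set of marks. Each run is the 250 bases before the RefSeq gene start in GRCm38.p6 (the build of mm10), read 5′ to 3′ on the gene's own strand, with each CG dinucleotide in capitals. They lie at chr3:31149670-31149919 on the plus strand for Cldn11, chr17:88792015-88792264 on the minus strand for Lhcgr and chr17:89200676-89200925 on the minus strand for Fshr.
Cldn11: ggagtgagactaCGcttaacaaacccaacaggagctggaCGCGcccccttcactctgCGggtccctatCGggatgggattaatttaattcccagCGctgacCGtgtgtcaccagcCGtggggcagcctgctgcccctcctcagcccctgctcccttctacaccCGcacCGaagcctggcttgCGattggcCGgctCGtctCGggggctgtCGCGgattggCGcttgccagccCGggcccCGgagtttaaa
Lhcgr: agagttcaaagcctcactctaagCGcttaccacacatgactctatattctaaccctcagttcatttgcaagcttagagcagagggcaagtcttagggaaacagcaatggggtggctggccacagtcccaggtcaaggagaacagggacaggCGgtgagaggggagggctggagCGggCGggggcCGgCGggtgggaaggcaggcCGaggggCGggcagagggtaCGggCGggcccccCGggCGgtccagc
Fshr: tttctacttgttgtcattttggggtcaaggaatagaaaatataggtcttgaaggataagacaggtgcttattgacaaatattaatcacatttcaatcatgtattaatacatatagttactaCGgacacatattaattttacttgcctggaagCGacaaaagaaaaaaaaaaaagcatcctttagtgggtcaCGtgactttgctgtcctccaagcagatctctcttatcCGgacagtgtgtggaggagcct
The Cldn11 promoter held 19 CG and was 63.6% G or C, the Lhcgr promoter held 12 CG at 63.2%, and the Fshr promoter held 4 CG at 36.8%. Over 32851 mouse promoters of the same length the median was 6 CG with quartiles of 2 and 16, and 92.1% held at least 1. RefSeq promoters were found for 4 of the 10 genes, these and Inha, whose RefSeq start lies 532 bases from the start in the chromatin table; the other starts lay 26 to 63 bases away. Motifs of factors known to act at gonadal genes were searched on both strands of these 4 sequences. The TATA box, TATAAA, is held by 12.4% of all promoters. The core site of steroidogenic factor 1, AAGGTCA, is held by 4.08%. A site of zinc finger factors of the Gata family, AGATAA, is held by 9.99%, and an E-box, CAGCTG, by 13.0%. None was found in the 4 sequences, which says only that these letters are not in these windows. Only the CAGCTG form of the E-box was searched, and the Fshr sequence holds another form, CACGTG.

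In control GSCs the Sertoli and Leydig cell genes fell into several chromatin states. Sox9 and Wt1 carried strong H3K4me3 and H3K27me3 that was not called above input. Cldn11, Clu and Fshr carried both H3K4me3 and H3K27me3 above input. At the window of Inha only H3K4me3 was above input. Lhcgr carried H3K4me3, H3K27me3 and H3K9me3. Amh, Star and Cyp17a1 had none of the 3 marks above input.

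Among the transcription factors, Sox9, which drives Sertoli cell fate, lies on chromosome 11 at 112782224 to 112787760 (mm10, the build of all positions of whole genes below). Its window had 17.4 and 21.2 RPM of H3K4me3 in the 2 control libraries, against 0.547 and 0.902 RPM of input. Every H3K4me3 value exceeded both inputs, and the log2 ratio over input was 4.77 (SE 0.35, limma adjusted p = 3.42e-06). Wt1, a zinc finger factor needed for gonad formation, lies on chromosome 2 at 105126529 to 105173616. It had 16.7 and 18.3 RPM of H3K4me3 against 0.912 and 1.32 RPM of input, a log2 ratio of 4.00 (SE 0.29, limma adjusted p = 3.39e-06). H3K27me3 was 1.71 and 1.01 RPM at Sox9 and 2.87 and 1.47 RPM at Wt1, and neither log2 ratio over input was called, with 0.90 (SE 0.60) and 0.90 (SE 0.57). The long noncoding RNA gene Wt1os begins 19 bases from Wt1, so signal at the shared start cannot be assigned to 1 of them.

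Cldn11 and Clu were marked by both H3K4me3 and H3K27me3. Cldn11 encodes claudin-11, a tight junction protein of the blood-testis barrier, on chromosome 3 at 31149946 to 31164324. It had 10.8 and 11.9 RPM of H3K4me3 and 6.57 and 4.49 RPM of H3K27me3, against 0.729 and 0.764 RPM of input. The log2 ratios over input were 3.93 for H3K4me3 (SE 0.33, limma adjusted p = 7.52e-06) and 2.86 for H3K27me3 (SE 0.55, limma adjusted p = 2.11e-06). Clu encodes clusterin, a secreted chaperone abundant in Sertoli cell fluid, on chromosome 14 at 65968483 to 65981548. It had 4.92 and 9.09 RPM of H3K4me3 and 6.36 and 4.30 RPM of H3K27me3, against 0.638 and 0.833 RPM of input. Its log2 ratios were 3.20 (SE 0.46, limma adjusted p = 2.03e-04) and 2.84 (SE 0.55, limma adjusted p = 2.76e-06).

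The hormone genes differed from each other. Inha, the alpha subunit of inhibin, lies on chromosome 1 at 75507077 to 75510366. It had 2.22 and 2.50 RPM of H3K4me3 against 0.638 and 0.555 RPM of input, a log2 ratio of 1.98 (SE 0.50, limma adjusted p = 0.00534), and the call was lost without either H3K4me3 library (adjusted p = 0.0512 and 0.0691). H3K27me3 at Inha was 1.095 and 1.099 RPM and was not called (log2 ratio 0.88, SE 0.61). The protein-coding gene Obsl1 lies 591 bases from Inha. Since the size of the window is not given, signal there cannot be assigned to 1 of them. Amh, the hormone by which fetal Sertoli cells make the Müllerian duct regress, lies on chromosome 10 at 80805248 to 80807648. It had 0.290 and 0.277 RPM of H3K4me3, from 3 and 5 reads, below the 0.638 and 0.902 RPM of input. Amh passed the filter of a mean of 0.5 RPM only through its input. The log2 ratio of -1.42 (SE 0.58, limma adjusted p = 0.0429) was called lower, and was no longer called when any 1 of the 4 libraries was left out (adjusted p from 0.106 to 0.279).

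The 2 gonadotropin receptor genes are neighbours on chromosome 17, 193194 bases apart and both on the minus strand. Fshr, at 88985170 to 89200612, had 3.28 and 4.33 RPM of H3K4me3 and 4.86 and 2.93 RPM of H3K27me3, against 0.547 and 0.555 RPM of input. The log2 ratios over input were 2.77 (SE 0.48, limma adjusted p = 6.17e-04) and 2.78 (SE 0.57, limma adjusted p = 1.26e-05). Lhcgr, at 88741549 to 88791976, had 1.54 and 2.11 RPM of H3K4me3 and 8.28 and 5.49 RPM of H3K27me3, against 0.547 and 0.208 RPM of input. Its log2 ratio was 2.42 for H3K4me3 (SE 0.66, limma adjusted p = 0.00776), resting on 16 and 38 reads against 6 and 3 in input. For H3K27me3 it was 4.32 (SE 0.57, limma adjusted p = 6.79e-12), the highest of the 10 genes.

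The steroidogenic genes Star, the carrier of cholesterol into mitochondria, and Cyp17a1, the enzyme that turns progestogens into androgens, had few reads of any mark. Star lies on chromosome 8 at 25808474 to 25814723 and had 0.290 and 0.166 RPM of H3K4me3 against 0.821 and 0.486 RPM of input. Cyp17a1 lies on chromosome 19 at 46667165 to 46672974, overlaps the noncoding gene Gm41857, and had 0.0965 and 0.111 RPM of H3K4me3 against 0.456 and 0.625 RPM of input. Both lay below input in every library but were under the 0.5 RPM mean needed for the H3K4me3 test. H3K27me3 was not called at either, with log2 ratios of -0.80 (SE 0.78) at Star and 0.77 (SE 0.62) at Cyp17a1.

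Counted over the set, H3K4me3 was above input at 7 of the 8 genes tested and below it at 1, beside 94.2% above and 0.834% below over all windows tested. The 1 below, Amh, was tested only because its input was high enough for the filter, so its direction is partly set by the filter. Star and Cyp17a1, also below input, were not tested. Lhcgr, with a mean of 0.378 RPM in input, passed the filter only through its mark libraries. Their means were 1.83 RPM for H3K4me3 and 6.89 RPM for H3K27me3, so its direction above input is partly set by the filter for both marks. The members' ratios ran from -1.42 to 4.77, with a median of 2.99 beside 4.84 over all windows. Most windows carried this mark, so median centring, which sets the typical window to 0, put all 7 genes called above input below 0 (-0.14 at Sox9 to -2.93 at Inha). H3K27me3 was above input at 4 of 10, beside 26.6% of all windows tested, and the members' median log2 ratio was 0.90 beside 0.24. Amh (-1.86, limma adjusted p = 0.199) and Star passed the filter for H3K27me3 only through their input.

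**Figure D1:**
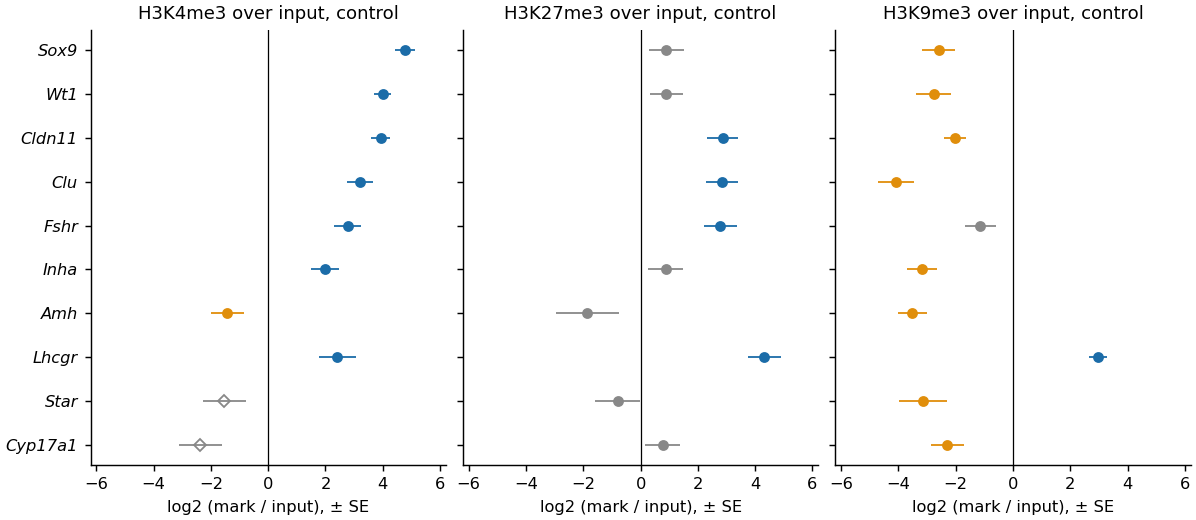
Log2 ratio of each mark over input in control GSCs (x axis, bars are ± SE of the limma fit, 2 mark and 2 input libraries) for the 10 genes. Blue points were called above input, orange points below it and grey points not called; open diamonds failed the filter on low values and come from the fit without it. Lhcgr is blue in all 3 panels, and at H3K9me3 it stands alone at 2.97.

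Lhcgr was the only member with H3K9me3 above input. Its window had 3.43 and 2.49 RPM of H3K9me3, from 141 and 126 reads, against 0.394 and 0.355 RPM in the inputs of the same kit. The log2 ratio was 2.97 (SE 0.33, limma adjusted p = 5.49e-04), and it ranked 87 of 21553 windows tested by this ratio. The other 9 genes had from 0 to 0.336 RPM of H3K9me3 against 0.346 to 0.662 RPM of input, and 8 were called below input. Those 8 passed the filter of a mean of 0.2 RPM only through their input. Over all windows 6.09% were above and 82.5% below input, with a median log2 ratio of -2.58, while 0.449% and 0.442% of H3K9me3 reads lay in gene windows against 1.02% and 1.07% of input reads. A low ratio at a member is therefore the state of most windows.

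Fshr had 0.122 and 0.336 RPM of H3K9me3 against 0.346 and 0.568 RPM of input, a log2 ratio of -1.13 (SE 0.55, limma adjusted p = 0.0773) that was not called; without H3K9me3 replicate 2 it was -1.87 (adjusted p = 0.00335) and without input replicate 3 -1.49 (adjusted p = 0.0402). The gene on the other side of Lhcgr, Gtf2a1l, starts at -123.3 kb from the start of Lhcgr and had 0.122 and 0.158 RPM. At every neighbour plotted, with starts from -1156 kb to 1118.5 kb, both H3K9me3 libraries lay below both inputs of the same window. Windows above input for both of these marks numbered 106, which is 8.08% of the 1312 H3K9me3 windows and 3.20% of the 3315 H3K27me3 windows, and Lhcgr was the only one of the 10 genes among them. Bulk libraries cannot show whether the marks lie on the same chromosomes or in the same cells.

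**Figure D2:**
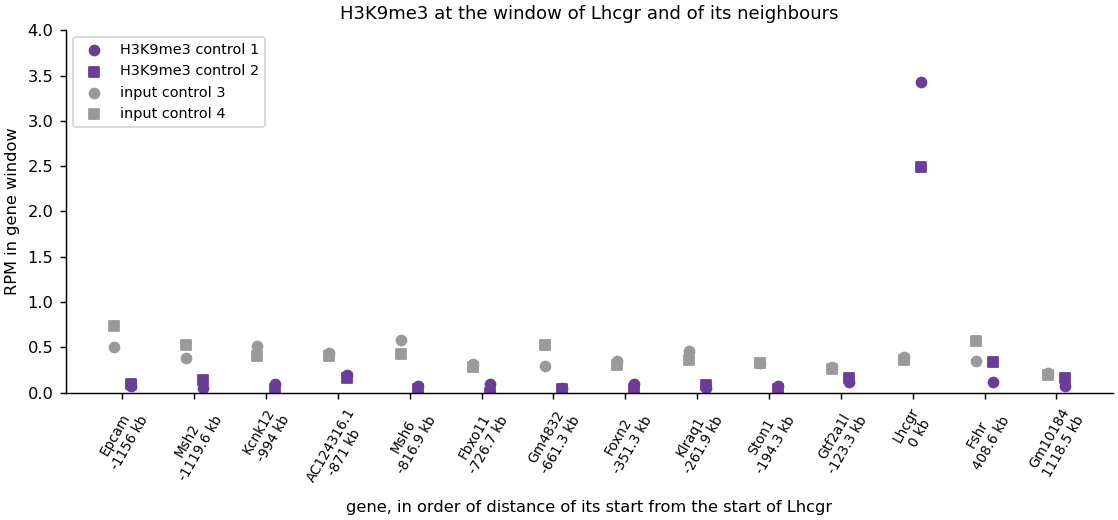
H3K9me3 (purple) and input (grey) in RPM (y axis) at the windows of Lhcgr and its neighbours on the same chromosome, ordered by the distance of their starts from that of Lhcgr (labels in kb); each symbol is 1 control library. At Lhcgr both H3K9me3 libraries (3.43 and 2.49 RPM) lie above both inputs, and at every neighbour both lie below them.

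In knockout cells the H3K4me3 level lay below control at all 7 members with enough signal to test, and the fall passed the test at Cldn11. The filter was a mean of 1 RPM over the 4 libraries. Lhcgr passed it only through its control libraries, with means of 1.83 RPM in control and 0.723 RPM in knockout. After quantile normalization the difference was above 0 at Lhcgr (0.10) and Inha (0.71) and below 0 at the other 5. At Cldn11 it went from 10.8 and 11.9 RPM in control to 2.87 and 4.46 RPM in knockout, from 112 and 215 reads to 11 and 74. The groups did not overlap, and the log2 change was -1.67 (SE 0.50, limma adjusted p = 0.0209). The call held without the shallow knockout replicate 1 (-1.35, adjusted p = 0.0202) but was lost without control replicate 1 (-1.73, adjusted p = 0.825), without control replicate 2 (-1.59, adjusted p = 1), over the same-numbered input (-1.18, adjusted p = 0.214) and after quantile normalization (-0.69, adjusted p = 0.0972). Input at Cldn11 was 0.729 and 0.764 RPM in control and 0.844 and 0.211 RPM in knockout.

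Fshr had 3.28 and 4.33 RPM in control and 0.783 and 1.27 RPM in knockout, the last 2 from 3 and 21 reads. The log2 difference of -1.92 (SE 0.71, limma adjusted p = 0.0582) was the lowest of the 7 and missed the threshold. It passed with a pseudocount of 0.5 RPM (adjusted p = 0.0414), with limma voom on recovered reads (adjusted p = 0.0192) and without knockout replicate 2 (adjusted p = 1.43e-04), but not over input (-1.54, adjusted p = 0.142), after quantile normalization (-0.57, adjusted p = 0.431) or without either control library (adjusted p = 0.825 and 1). Clu had 4.92 and 9.09 RPM in control and 1.83 and 3.02 RPM in knockout, a log2 difference of -1.51 (SE 0.58, limma adjusted p = 0.0725), which passed with limma voom (adjusted p = 0.0240) and without knockout replicate 2 (adjusted p = 2.79e-04), but not over input (-1.08, adjusted p = 0.303), after quantile normalization (-0.29, adjusted p = 0.616) or without either control library (adjusted p = 0.825 and 1). Without a library of 1 genotype the spread comes from the 2 libraries of the other. Over the 15624 windows tested, r was 0.978 between the control libraries and 0.935 between the knockout libraries. Whether this bears on the lost calls was not tested. At both genes every knockout library lay below every control library.

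At Lhcgr, H3K4me3 was 1.54 and 2.11 RPM in control and 0.783 and 0.664 RPM in knockout, where input was 0.591 and 0.562 RPM. The log2 difference was -1.32 (SE 0.79, limma adjusted p = 0.305), on 3 and 11 knockout reads. With 0.5 RPM added to each value, the knockout log2 ratios over input were 0.23 and 0.13 at Lhcgr and 0.23 and 0.73 at Fshr, against 0.96 and 1.88 and against 1.85 and 2.19 in control.

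Sox9 and Wt1, the factors with the highest ratio over input in control, had smaller log2 differences than Cldn11, Clu, Fshr and Lhcgr. The smallest difference was at Inha, whose ratio was the lowest of the genes called above input. Ratios and differences share the control libraries, so this is a description. Sox9 had 17.4 and 21.2 RPM in control and 7.83 and 17.2 RPM in knockout, a log2 difference of -0.73 (SE 0.34, limma adjusted p = 0.153). Wt1 had 16.7 and 18.3 RPM in control and 7.31 and 13.2 RPM in knockout, a difference of -0.83 (SE 0.36, limma adjusted p = 0.122). In both, knockout replicate 1 was far below replicate 2: without replicate 1 the differences were -0.16 and -0.40, and without replicate 2 they were -1.29 and -1.26 and passed the test. Inha had 2.22 and 2.50 RPM in control and 1.04 and 2.05 RPM in knockout (-0.69, SE 0.71, limma adjusted p = 0.653).

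Amh, Star and Cyp17a1 were not tested, with at most 5 reads in any H3K4me3 library. Amh had 0.290 and 0.277 RPM in control, and 0 and 0.241 RPM in knockout. Star had 0.290 and 0.166 RPM in control, and 0.783 and 0.241 RPM in knockout. Cyp17a1 had 0.0965 and 0.111 RPM in control, and 0.522 and 0.181 RPM in knockout. At these counts no difference was detectable.

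**Figure D3:**
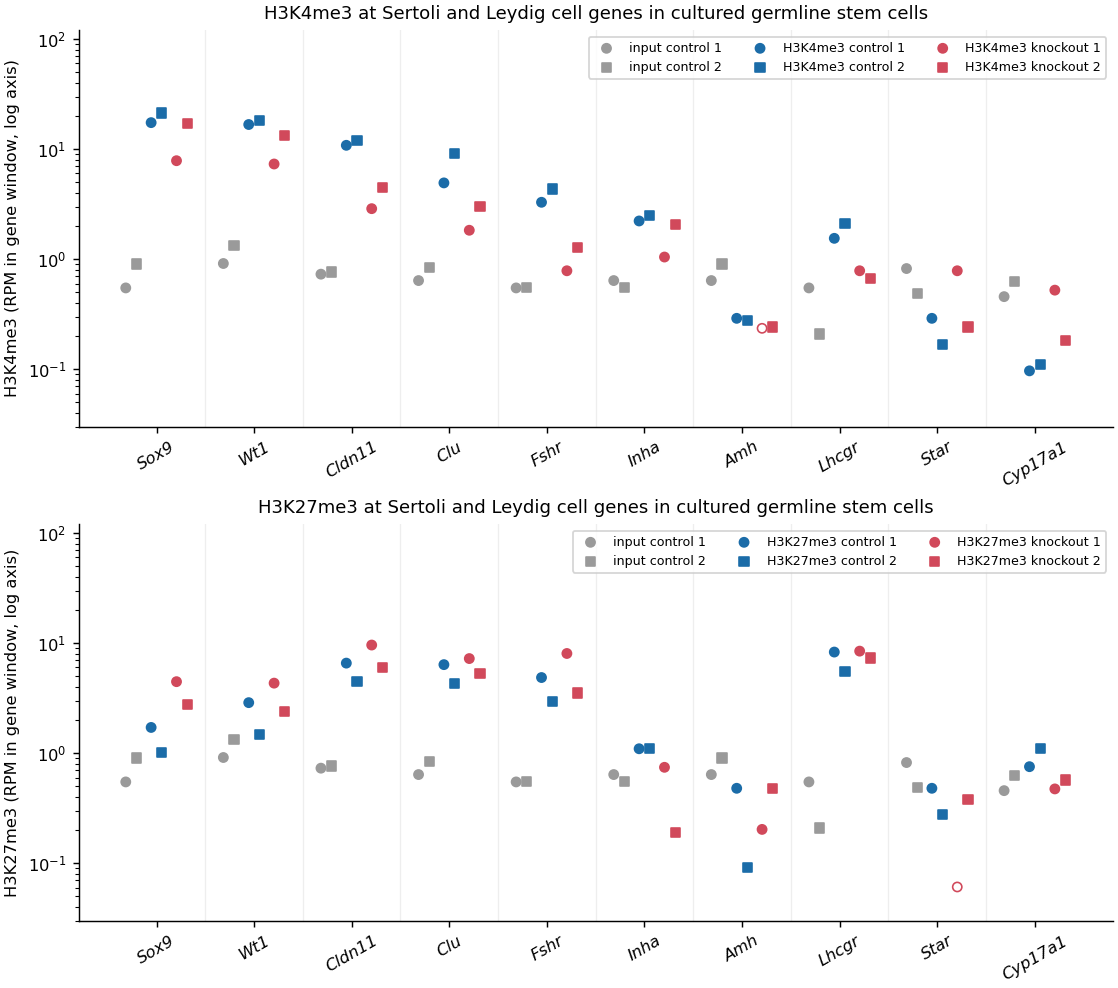
H3K4me3 (top) and H3K27me3 (bottom) in RPM on a log axis at the 10 genes, for control (blue) and knockout (red) libraries beside the 2 control inputs (grey); circles are replicate 1, squares replicate 2, and an open symbol is a library with no read, drawn at 0.9 of 1 read. In the top panel all 7 tested genes, Sox9, Wt1, Cldn11, Clu, Fshr, Inha and Lhcgr, have both red symbols below both blue ones.

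Of the 7 tested members, 1 was called lower, beside 9.90% of all 15624 windows, and 7 of 7 had groups that did not overlap, lower in knockout, beside 42.8%. Lhcgr is among the 7 only through its control libraries, so its direction is partly set by the filter. Among the genes under the filter, the means of Star and Cyp17a1 were higher in knockout and that of Amh was lower. At an unadjusted p under 0.05 there were 5 of 7, beside 3853 windows lower and 49 higher of all 15624. The members' median log2 difference was -1.32, against -0.26 over all windows tested. Over all windows the difference varied with the control level: the median was -0.75 for windows under 2 RPM in control (Lhcgr), -1.34 for 2 to 4 RPM (Inha and Fshr), -1.25 for 4 to 8 RPM (Clu), -0.66 for 8 to 16 RPM (Cldn11) and -0.09 from 16 RPM up (Sox9 and Wt1). The shares called lower in these 5 classes were 1.36%, 18.8%, 24.3%, 17.2% and 4.58%. The classes and the differences share the control libraries, so their relation is a description.

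**Figure D4:**
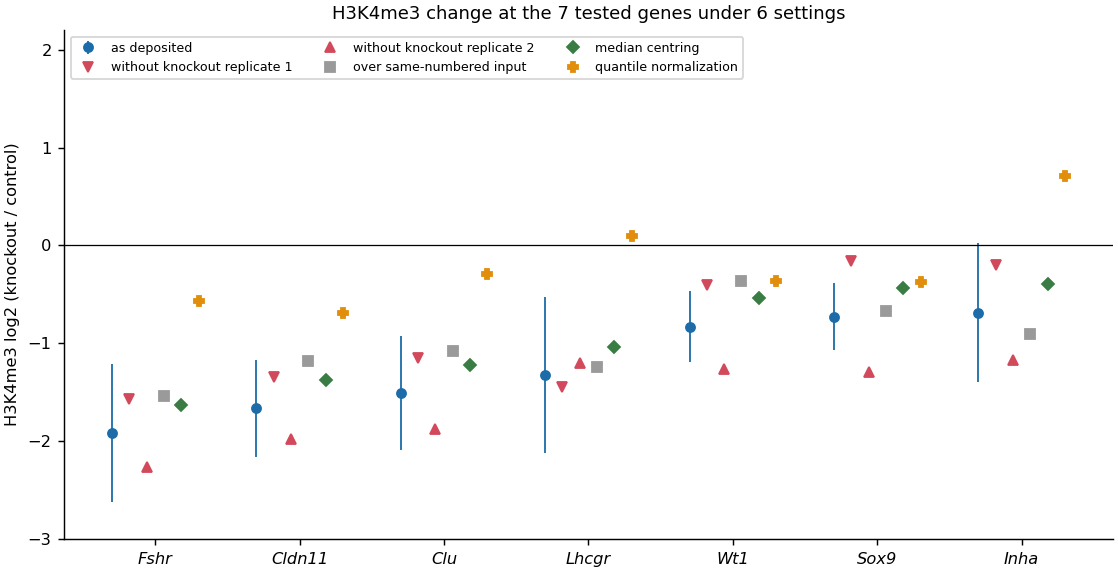
Log2 difference of H3K4me3, knockout against control (y axis), at the 7 tested genes; blue circles are the values as deposited with ± SE, and the other symbols are the same difference with a library left out, over input, or under another scaling. Quantile normalization moved Lhcgr to 0.10 and Inha to 0.71, and all other values drawn are below 0.

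The H3K27me3 level was above control in knockout at all 6 members tested in the values as deposited, and at none was the difference called. At Sox9 and Wt1 it stayed above 0 in every alternative, while at Cldn11, Clu, Fshr and Lhcgr at least 1 alternative put it below 0. Sox9 differed the most: it had 1.71 and 1.01 RPM in control and 4.46 and 2.75 RPM in knockout, from 25 and 11 reads to 66 and 29. Its groups did not overlap, and the log2 difference was 1.42 (SE 0.55, unadjusted p = 0.00981, limma adjusted p = 0.227). At Wt1 the values were 2.87 and 1.47 RPM in control and 4.32 and 2.37 RPM in knockout, which overlap (0.64, SE 0.56).

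At the genes that already carried the mark in control the differences were smaller and all groups overlapped. Cldn11 had 6.57 and 4.49 RPM in control and 9.59 and 5.98 RPM in knockout (0.48, SE 0.59). Fshr had 4.86 and 2.93 RPM in control and 8.04 and 3.51 RPM in knockout (0.49, SE 0.60). Clu had 6.36 and 4.30 RPM in control and 7.23 and 5.31 RPM in knockout (0.24, SE 0.60). Lhcgr had 8.28 and 5.49 RPM in control and 8.44 and 7.31 RPM in knockout (0.22, SE 0.59).

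The members' median of 0.49 stood beside 0.45 over all 4807 windows tested, 0 of 6 were called higher beside 0.791%, and 1 of 6 had groups that did not overlap beside 36.9%. At an unadjusted p under 0.05 there was 1, Sox9, beside 579 windows higher and 6 lower of all 4807. With limma voom 0 of the 6 were called. Median centring gives all libraries the same median, and it moved the median difference over all windows from 0.45 to -0.13. With it Cldn11 (-0.10), Fshr (-0.09), Clu (-0.34) and Lhcgr (-0.36) lay below 0 while Sox9 and Wt1 stayed above it. Cldn11 and Fshr still lay above the median of all windows, and Clu and Lhcgr lay below it. Amh, Inha, Star and Cyp17a1 were under the filter in this comparison, with 0 to 16 reads in a library; Inha had 1.095 and 1.099 RPM in control and 0.743 and 0.190 RPM in knockout.

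RNA of the 10 genes ranged from no read at all to 735 reads in a library. Wt1 RNA was read in every library, at 14.4 and 12.9 RPM in control and 13.9 and 18.4 RPM in knockout. The groups overlapped, and the log2 difference was 0.23 (SE 0.15, limma adjusted p = 0.471); without knockout replicate 1 it was 0.43 and passed (adjusted p = 6.31e-05). Sox9 RNA was 0.650 and 0.699 RPM in control, from 25 and 31 reads, and 1.44 and 1.30 RPM in knockout, from 66 and 52 reads. The knockout libraries were both above the control libraries, yet Sox9 fell just under the filter of a mean log2 RPM of 0, and in the fit without a filter its log2 difference was 1.02 (limma adjusted p = 0.162).

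Star RNA went the other way, from 2.94 and 2.80 RPM in control to 1.88 and 2.10 RPM in knockout. Both knockout libraries were below both control libraries, and the log2 difference of -0.53 (SE 0.18, unadjusted p = 0.0213, limma adjusted p = 0.167) did not pass; without knockout replicate 2 it was -0.61 and passed (adjusted p = 0.0164). Star RNA was read while its window had no H3K4me3 above input. The size and place of the chromatin window are not given in the sources used here. The protein-coding gene Ash2l lies 1277 bases from Star, and whether it adds to the reads counted at Star was not tested. Fshr RNA was 0.832 and 0.992 RPM in control and 1.14 and 1.22 RPM in knockout (0.38, SE 0.25, limma adjusted p = 0.463). Its mean log2 RPM was -0.14 in control and 0.24 in knockout. Fshr therefore passed the filter only through its knockout libraries, and its direction is partly set by the filter. The groups of Fshr did not overlap either. Over all 14100 genes tested, groups did not overlap at 5109 genes higher and 2254 genes lower in knockout.

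Cldn11 RNA was 1.07 and 1.44 RPM in control and 1.38 and 0.974 RPM in knockout, with overlapping groups (-0.10, SE 0.29, limma adjusted p = 0.888). Inha RNA was 1.61 and 1.44 RPM in control and 1.64 and 1.42 RPM in knockout, a log2 difference of 0.00 (SE 0.22, limma adjusted p = 0.996). Clu RNA was under the filter at 0.156 and 0.293 RPM in control and 0.153 and 0.250 RPM in knockout. None of this shows that the levels of Cldn11, Inha or Clu RNA were alike, since the test only failed to find a difference.

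Lhcgr, Amh and Cyp17a1 had almost no RNA. Lhcgr had 0 and 1 reads in control and 4 and 1 in knockout. Amh had 0 and 1 reads in control and 0 and 1 in knockout. Cyp17a1 had no read in any of the 4 libraries, which allows up to 3 reads, or 0.0655 to 0.0780 RPM, from counting error alone.

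**Figure D5:**
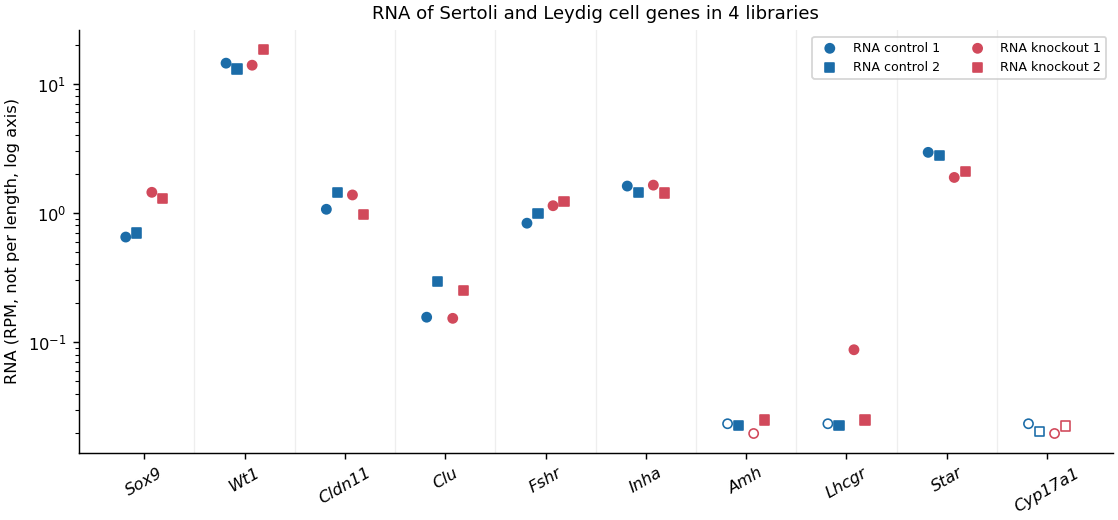
RNA in RPM on a log axis (not divided by gene length, so to be read within a gene) at the 10 genes in 2 control (blue) and 2 knockout (red) libraries; circles are replicate 1, squares replicate 2, and open symbols are libraries with no read, drawn at 0.9 of 1 read. Sox9 and Fshr have both red symbols above both blue ones, Star has both below, and Cyp17a1 has 4 open symbols.

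No member was called for RNA by limma, 0 of 5 tested, beside 3.01% of all 14100 genes called higher and 0.312% called lower. At an unadjusted p under 0.05 there was 1, Star, beside 508 genes lower and 2326 higher of all 14100. With limma voom 0 members were called as well.

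Other genes of the 2 cell types were read from a list of 30 Sertoli and 20 Leydig cell genes. For H3K4me3, 19 of the Sertoli genes were tested, all 19 had a log2 difference below 0 with a median of -0.996, beside 72.9% of all windows below 0 and a median of -0.26, and 1 was called lower: Cbln4, a secreted cerebellin family protein, with 9.85 and 10.3 RPM in control and 2.09 and 5.07 RPM in knockout (-1.63, limma adjusted p = 0.0290), a call lost without either control library, without knockout replicate 1, over input and after quantile normalization (adjusted p from 0.0942 to 1). Of 13 other Leydig genes tested none was called by limma, with a median of -0.33. Over all windows tested for H3K4me3, 9.90% were called lower. Neither list had a window called for H3K27me3, of 16 and 5 tested, beside 0.791% of all windows called higher.

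RNA of 4 of 11 other Sertoli cell genes rose, beside 3.01% of all genes tested, and none was called lower, beside 0.312%. Sox8, a relative of Sox9 that acts beside it, rose from 1.90 and 2.14 RPM to 4.54 and 4.80 RPM (log2 change 1.21, limma adjusted p = 0.0230). Gja1, the gap junction protein connexin 43, rose from 1.35 RPM in both control libraries to 3.15 and 3.02 RPM (1.19, limma adjusted p = 0.0278). Cldn3, a claudin of the blood-testis barrier, rose from 5.33 and 5.41 RPM to 9.61 and 8.04 RPM (0.71, limma adjusted p = 0.0463). Sox8, Gja1 and Cldn3 each had knockout libraries above both control libraries, as had 5109 of all 14100 genes tested. Their calls were lost without the filter on low values (adjusted p from 0.0799 to 0.111), where no gene of the table was called. They were also lost after quantile normalization (adjusted p from 0.0586 to 0.168). The Cldn3 call was also lost without either control library and under median centring (adjusted p from 0.0872 to 0.146).

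Among 10 other Leydig cell genes 1 rose, Pdgfra, a growth factor receptor that fibroblasts also carry, from 6.22 and 6.38 RPM to 9.68 and 11.2 RPM (0.73, limma adjusted p = 0.0382). The call was lost without either control library, without the filter and after quantile normalization (adjusted p from 0.0757 to 0.122). The 29 other Sertoli genes in the RNA table summed to 38.5 and 41.0 RPM in control and 60.2 and 64.4 RPM in knockout. The 22 feeder fibroblast markers summed to 534 and 567 RPM in control and 593 and 755 RPM in knockout, with none at 0 reads; 2 of 19 tested rose, Twist1 (0.81, limma adjusted p = 0.0294) and Col1a1 (0.71, limma adjusted p = 0.0307). Both calls were lost without the filter and without control replicate 1 (adjusted p from 0.0847 to 0.204), that of Col1a1 also without control replicate 2 (0.0654), and that of Twist1 also under median centring (0.0548) and quantile normalization (0.0964). The 7 macrophage and blood markers summed to 5.93 and 6.58 RPM in control and 7.80 and 6.67 RPM in knockout, with none of the 3 tested called. Germ cell markers summed to 3568 and 3511 RPM in control and 3470 and 3657 RPM in knockout, and 2 of 16 tested rose, Gfra1 (0.62, limma adjusted p = 0.0265) and Ret (0.62, limma adjusted p = 0.0438), calls lost without the filter, after quantile normalization and without either control library (adjusted p from 0.0522 to 0.366). Beside these RNA counts of each list, 3.01% of all genes tested were called higher. The part of feeder cells in the Sertoli and Leydig gene results was not tested. For H3K4me3, 5 of 18 feeder marker windows tested fell, beside 9.90% of all windows called lower. Among the 5 were Lox (-2.14, limma adjusted p = 0.00862), Fbln2 (-2.55, limma adjusted p = 0.00904), Vim (-1.16, limma adjusted p = 0.0190) and Fap (-1.89, limma adjusted p = 0.0298). Vim kept its call after quantile normalization (limma adjusted p = 0.0157) and lost it over input (0.0634). The call of Fap was lost in both (limma adjusted p = 0.323 and 0.0847). Both calls were also lost without either control library. Also called lower were 1 of 2 macrophage markers, Fcgr3 (-2.04, limma adjusted p = 0.0234), and 1 of 17 germ cell markers, Lhx1 (-1.03, limma adjusted p = 0.0498). The Fbln2 value rests on 1 read in the shallow knockout replicate 1 and was -0.59 without it (adjusted p = 0.435), and its call was also lost under median centring (adjusted p = 0.0902). The calls of Lox, Fbln2, Fcgr3 and Lhx1 were all lost after quantile normalization, over input and without either control library (adjusted p from 0.0537 to 1), and that of Lhx1 also without the filter (0.0771).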

How the data were processed

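The 16 chromatin and 4 RNA libraries came as 2 deposited tables, which hold log2 values: log2 RPM (reads scaled by the library's mapped reads) per gene window or gene, made by the authors, as the values themselves show. Since 2 to the power of each value is a whole multiple of 1 step per library (100.0% of values within 0.1 of a whole read), reads were recovered from it; a library with no read stands at 0.9 of 1 read and is printed as 0. The submitters' processing notes name CASAVA 1.8, Trim Galore 0.4.0, Bowtie 1.1.1, TopHat2 2.0.14 and mm10. The size and place of the windows and whether RNA counting used strand are not given in the sources used here. No column was left unassigned, and input reads of a window did not scale with gene length: input 3 held 36 reads at Amh and 22 at Fshr. Reads are not known to be independent molecules, so floors of 3 reads cover counting error only.

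Groups were taken from the labels. Comparisons used limma 3.58.1 (R 4.3.3), its variance trend fitted over log2 values of only the 2 groups compared, without a replicate block, with Benjamini-Hochberg adjustment over all features tested; genes were kept at a mean of 1 RPM for the marks, a mean log2 RPM of 0 for RNA, 0.5 RPM for marks over input and 0.2 RPM for H3K9me3. Alternatives were no filter or another filter, a pseudocount of 0.5 RPM, median centring, quantile normalization, limma voom on recovered reads, division by input, the replicate block and leaving out each library. Where a library was left out, the lone library of that group is assumed to vary like the others. Knockout and control inputs compared the same way gave 0 calls by limma (limma voom also gave 0, and 396 windows lower and 345 higher had p under 0.05 before adjustment). Deviations of same-numbered libraries correlated at 0.149 for H3K4me3, 0.062 for H3K27me3 and 0.087 for RNA; with 2 pairs and no label tying the numbers to shared lines, libraries were treated as unpaired.

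All 10 genes are counted in every comparison. For H3K9me3 over input only Lhcgr and Fshr are given with values of their own. Of the lists of other Sertoli, other Leydig, feeder, macrophage and germ cell genes, those called in a genotype comparison are named, at most 6 for the first 2 lists and 4 for the others, by smallest adjusted p; 1 gene of the other Sertoli list is counted but not reported here. The genes and lists were chosen with earlier results of these data known. Promoter sequences come from RefSeq.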

Additional observations from a re-analysis of the deposited data

How the results depend on the processing

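Over all windows, H3K4me3 calls between genotypes (1554) numbered 1009 after quantile normalization, 2699 with limma voom on recovered reads, 320 over the same-numbered input and 2 to 7017 with a library left out; members called (1) numbered 2 with a pseudocount, 0 after quantile normalization, 3 with limma voom, 0 over input and 0 to 5 with a library left out. H3K27me3 calls (38) numbered 283 after median centring, 3 after quantile normalization, 4 over input and 0 to 152 with a library left out. RNA calls (469) numbered 0 without the filter, 70 after quantile normalization and 255 to 6699 with a library left out, and members called (0) ranged from 0 to 1. Input calls numbered 2 after quantile normalization. With the replicate block, in which the number is only a shared label, calls numbered 4107 for H3K4me3 with 5 members (Sox9, Wt1, Cldn11, Clu and Fshr), 1213 for H3K27me3 with 1 member (Sox9, adjusted p = 0.0011) and 1487 for RNA with 0 members; Amh H3K4me3 over input was no longer called (adjusted p = 0.0779). H3K9me3 and its inputs share no number, so they have no block. Calls over input numbered 2153 with 4 members for H3K4me3 under median centring (15737 and 8 without it), and for H3K9me3 (19086 and 9) 3190 with 1 member under median centring and 315 with 1 member at a mean of 1 RPM, where fewer windows were tested.

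Quantile normalization reversed the H3K4me3 difference at Inha (0.71) and Lhcgr (0.10), the H3K27me3 difference at Clu (-0.11) and Lhcgr (-0.043) and the RNA difference at Inha (-0.23). Median centring reversed the H3K27me3 difference at Cldn11 (-0.10), Clu (-0.34), Fshr (-0.089) and Lhcgr (-0.36), the RNA difference at Inha (-0.095) and Wbp7 (-0.0040), and the ratio over input of H3K4me3 at Sox9 (-0.14), Wt1 (-0.91), Cldn11 (-0.98), Clu (-1.71), Inha (-2.93), Fshr (-2.14) and Lhcgr (-2.49) and of H3K9me3 at Cldn11 (0.29), Fshr (1.18) and Cyp17a1 (0.024). Over input, the H3K27me3 difference at Lhcgr was -0.12. With a library left out, the differences spanned 0 for H3K27me3 at Clu (-0.038 to 0.53), Fshr (-0.10 to 1.09) and Lhcgr (-0.076 to 0.52), for RNA at Cldn11 (-0.35 to 0.15), Inha (-0.099 to 0.10) and Wbp7 (-0.15 to 0.34), and for H3K4me3 at Wbp7 (-0.069 to 0.40). The cause was not tested. The H3K9me3 call at Lhcgr held under every alternative run. Depth limits the H3K4me3 values of knockout replicate 1 most, where 3 reads are 0.783 RPM.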
